A study of Homo sapiens with 4 samples.

Results

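Wild-type PBRM1 was compared with 3 mutants of its BAH (bromo-adjacent homology) domains, taken as 1 group. The comparison used all 4 RNA-seq libraries of the series, 1 for the unaltered protein (WT) and 1 for each of P1048R, T1202K and C1233W. Of 58735 genes in the count table, the 16262 that reached 1 CPM in some library were compared, 1 CPM being 1 read per 1000000 of a library scaled by TMM. The cells were HEK293T, a human embryonic kidney line, whose own PBRM1 gene had been disrupted with CRISPR. All 4 cultures were transfected with a plasmid for GFP-tagged PBRM1 and harvested 48 h later, so the deletion, the tag and the transfection are common to WT and mutants. The sources used here do not say whether the disrupted cells were 1 clone or a pool, and they name no step that separated transfected from untransfected cells, so a difference in the number of expressing cells and one in RNA per cell cannot be told apart.

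PBRM1, also called BAF180 or polybromo, is a defining subunit of PBAF, a member of the SWI/SNF family of complexes that use ATP to move nucleosomes. Its row of bromodomains binds acetylated histone tails, and the BAH domains that follow are known from other chromatin proteins as surfaces for protein and nucleosome contacts. PBAF differs from the related BAF complex by PBRM1, ARID2, BRD7 and PHF10, and PBRM1 is among the most often mutated genes of clear cell kidney cancer.

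The mutated residues are shown in their reference coding context because they are what separates the 4 constructs. Each line gives 27 bases of the coding strand of PBRM1 with the codon of the altered residue in capitals. The letters were read from the GENCODE 29 transcripts and are not the plasmids' sequences. The codons lie on the minus strand of chromosome 3 (GRCh38), in coding exons of PBRM1-201: the proline of P1048R in exon 20 at 52586668 to 52586670, the threonine of T1202K in exon 22 at 52576626 to 52576628 and the cysteine of C1233W in exon 23 at 52564226 to 52564228. Residue numbers count from 1 at the first methionine.
P1048R: tttaagttatgcCCAgaaaacttccga
T1202K: cacccagaagaaACAgagcatgagccc
C1233W: attctcggaaagTGTgctgtgttgtca

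Each gene was judged in 3 ways. WT was outside the mutant range when its level was below the lowest or above the highest of the 3 mutants. WT was apart when it also differed by at least 2-fold from each mutant, with the 95% counting interval of each ratio (exact Clopper-Pearson) leaving out no change. The third was edgeR's quasi-likelihood test of WT against the mutant group, with Benjamini-Hochberg adjustment over all 16262 genes and a threshold of 0.05. In that test the spread came from the mutants alone, which are 3 different constructs and not repeats of 1. The lone WT library was assumed to vary like the mutants. Each gene's spread was also moderated toward that of the other genes, so it does not rest on the gene's own values only. The p-values therefore set WT against the spread between these libraries, and a difference of the WT construct cannot be told apart from a difference of the WT culture or library. An exact permutation test of a single gene with 1 library against 3 cannot go below p = 0.25, so none was used. With 1 library per construct, single levels carry no SD.

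WT was below the mutant range for 5036 genes (31.0%) and above it for 5429 (33.4%), so lying outside the range was common. The counts for gene lists below stand against these shares. WT was apart and lower for 204 genes (1.25%) and apart and higher for 54 (0.332%). The edgeR test called 254 genes lower in WT (1.56%) and 201 higher (1.24%), and 112 of these 455 genes were also apart. For the other 343 called genes the nearest mutant was within 2-fold of WT, and 2952 genes had an unadjusted p under 0.05. Scaling by total counts moved the median log2 difference of all genes from 0.02 to -0.16, and the called genes then split into 451 lower and 60 higher, or 88.3% lower against 55.8%. Without the C1233W library the test called 1637 lower and 974 higher of 15920 genes, with the spread taken from P1048R and T1202K alone. Calls without C1233W were thus far more common among all genes, and those given below stand against these totals.

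The libraries held 10246250 counted reads for WT and 10348552 to 11205322 for the mutants, and 3 reads corresponded to between 0.251 and 0.321 CPM. Transcripts under 1 kb made up 5.87% of the reads in WT and 4.06% to 4.39% in the mutants. Among genes with WT apart, the median GC content of the longest transcript was 53.2% for those lower and 43.9% for those higher, against 48.0% for all genes compared. The median transcript length was 2921 bases for the lower genes, 769.5 for the higher ones and 3385 for all. GC content thus lay on opposite sides of all genes, whereas transcripts were shorter than in all genes in both directions. The median of the mean level was 4.30 CPM for the lower genes, 1.52 for the higher ones and 21.9 for all. The part of GC and length in the differences was not tested beyond removing each library's trend with them. With the trend removed, 199 genes were called lower and 122 higher. Of the marker genes of other cell types, 1 of 15 for blood, 7 of 16 for fibroblasts and endothelium, 4 of 13 for adrenal and neural crest cells and 6 of 16 for keratinocytes and carcinoma lines reached the minimum level, and edgeR called none of them. The count at an unadjusted p under 0.05 was 1 among these 18 genes, and DESeq2's Wald test called 0. DESeq2 gave no adjusted p for 3784 of the 16262 genes, so its counts of 0 for marker genes can include genes it did not judge. Without C1233W edgeR called 2 fibroblast and endothelial markers higher and 1 adrenal and neural crest marker lower. Of 23 kidney epithelium markers, which this line mostly lacks, 9 reached the minimum level and 0 were called by either tool (2 lower at an unadjusted p under 0.05). CUBN, a receptor of the kidney tubule, was apart, at 1.71 CPM in WT and 3.69 to 5.61 in the mutants (edgeR adjusted p = 0.141).

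PBRM1 transcripts, from plasmid and genome together, were abundant in all 4 libraries and uneven. PBRM1 (chromosome 3, 52545352 to 52685917) stood at 8805 CPM in P1048R, 15262 in T1202K, 22768 in WT and 60509 in C1233W. WT lay inside the mutant range, and whether other genes vary with the PBRM1 transcript level was not tested. The difference from the mutant group was -0.31 on the log2 scale (SE 0.55, edgeR adjusted p = 0.822), and its direction turned on 1 library: it was -0.73 without P1048R and 0.88 without C1233W.

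Of the other PBAF-defining genes, none passed the test. BRD7, the bromodomain subunit, stood at 256 CPM in WT, against P1048R at 181, T1202K at 189 and C1233W at 188 (log2 difference 0.46, SE 0.15, edgeR adjusted p = 0.103). PHF10, a PHD finger subunit, was at 244 CPM in WT, with 203 for P1048R, 199 for T1202K and 178 for C1233W (log2 difference 0.34, SE 0.16, edgeR adjusted p = 0.254). WT was the highest library for both, without passing the test, although BRD7 passed without the C1233W library (adjusted p = 0.0340). ARID2, the DNA-binding subunit, was at 68.4 CPM in WT, inside the mutant range of 63.1 to 75.9.

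Of 24 other SWI/SNF subunit genes, WT was below the mutant range for 8 (33.3%) and above it for 9 (37.5%), near the 31.0% and 33.4% of all genes. The median log2 difference was -0.04. The test called 2, both lower in WT. BICRAL, a paralog of the subunit that marks the non-canonical BAF complex, was at 16.05 CPM in WT, against P1048R at 40.6, T1202K at 33.1 and C1233W at 29.4 (log2 difference -1.10, SE 0.24, edgeR adjusted p = 0.0191). SMARCD3, the BAF60C subunit of heart and neurons, was at 22.8 CPM in WT and 40.3 to 45.7 in the mutants. For these genes every mutant was above WT, and WT lay outside the mutant range for all 455 called genes. The SMARCD3 call was lost without P1048R (edgeR adjusted p = 0.0633), and without C1233W the test called 7 of the 24 lower. Among 18 Polycomb genes and regulators of histone H3 lysine 27 methylation, WT was below the mutant range for 6 (33.3%) and above it for 5 (27.8%). The 1 called gene was KDM6B, which removes that methylation. It was at 29.5 CPM in WT, with 57.1 for P1048R, 51.8 for T1202K and 54.9 for C1233W (edgeR adjusted p = 0.0211).

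Of the 15 protein-coding genes with the clearest gap below all mutants, RIMS2, GABBR2, ADGRB2 and CELSR3 belong to the synapse and axon guidance lists, and PHF21B led the ranking. The gap is the log2 ratio of WT to the nearest mutant, and genes were ranked by the bound of its 95% counting interval that lies nearer to 0. PHF21B, a PHD finger protein related to a subunit of the LSD1 repressor complex (chromosome 22, 44881162 to 45009999), stood at 9.09 CPM in WT, against P1048R at 52.9, T1202K at 39.0 and C1233W at 35.2. WT was 3.85-fold below the nearest mutant, a gap of -1.95 (-2.31 to -1.61), and the log2 difference from the group was -2.22 (SE 0.28, edgeR adjusted p = 0.000466). WT did not overlap the mutants, as holds for every apart gene.

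ADGRB2, an adhesion G-protein-coupled receptor of the brain (chromosome 1, 31727117 to 31764893), stood at 14.7 CPM in WT, with 54.7 for P1048R, 41.3 for T1202K and 48.4 for C1233W. RIMS2, a scaffold of the presynaptic release site, was at 4.07 CPM in WT, against P1048R at 19.1, T1202K at 14.1 and C1233W at 13.5. CELSR3, an atypical cadherin of axon guidance (chromosome 3, 48636469 to 48662915), was at 14.98 CPM in WT, with 60.1 for P1048R, 41.9 for T1202K and 39.6 for C1233W. In all 3 genes the lowest mutant was well above WT, with gaps of -1.49, -1.72 and -1.40, and edgeR adjusted p = 0.000875, 0.00432 and 0.00256. GABBR2, a subunit of the GABA-B receptor (chromosome 9, 98288082 to 98709197), was at 3.21 CPM in WT, against P1048R at 16.5, T1202K at 10.8 and C1233W at 9.87 (gap -1.60, edgeR adjusted p = 0.00987).

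**Figure D1:**
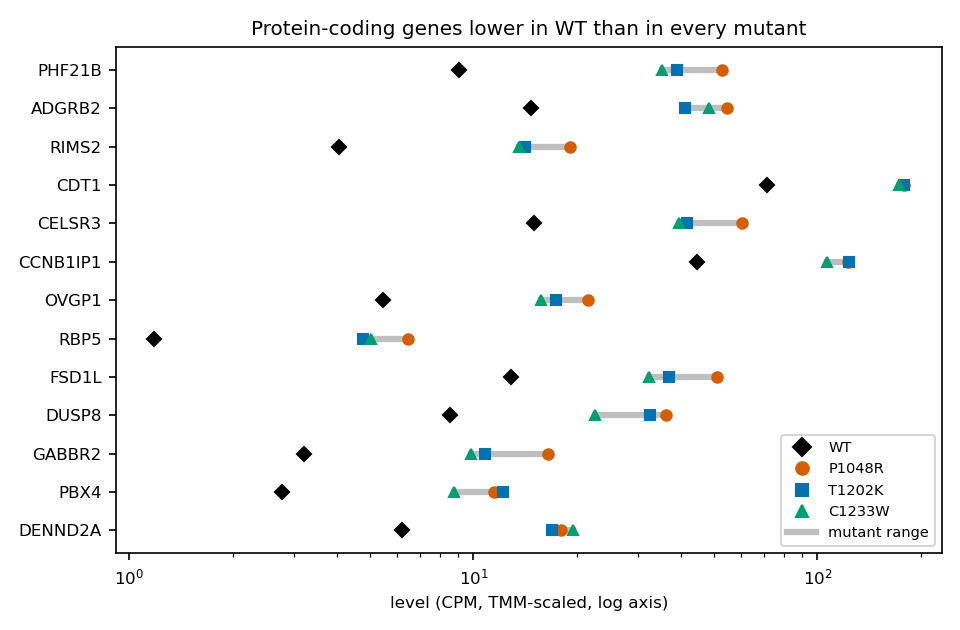
Levels in CPM (log axis) of 13 protein-coding genes with WT apart and lower, 1 row per gene; the diamond is WT, the other symbols are the 3 mutants and the grey bar spans the mutants. KRTAP5-1 and CYS1, with 0 reads in WT, are not drawn; in every row WT lies to the left of the bar, as for PHF21B at 9.09 CPM against 35.2 to 52.9.

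The wider neuronal lists did not move as 1 block. Of 36 tested synapse and neurotransmission genes, WT was below the mutant range for 16 (44.4%) and above it for 6 (16.7%), against 31.0% and 33.4% of all genes. The median log2 difference was -0.27 against 0.02 for all genes. The test called 3 of them lower and 0 higher: RIMS2, GABBR2 and STX1A, a syntaxin of synaptic vesicle fusion (7.70 CPM in WT and 14.99 to 22.3 in the mutants). The STX1A call was lost after the GC and length correction (edgeR adjusted p = 0.0619) and without P1048R (0.0574). At an unadjusted p under 0.05, 2 were higher, and DESeq2's Wald test called 0 higher; without C1233W the edgeR test called 6 lower and 1 higher. Axon guidance and neural adhesion genes had a median of -0.03, with 2 of 31 called lower, ADGRB2 and CELSR3. The neuronal cytoskeleton list, 11 genes, had 6 above the range and 1 called higher. That gene was NEFM, a neurofilament subunit that HEK293T cells are known to express, at 345 CPM in WT and 172 to 192 in the mutants (edgeR adjusted p = 0.00271).

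Other genes of the lower group had roles in replication, meiosis and signalling. CDT1, which loads the MCM helicase at replication origins (chromosome 16, 88803213 to 88809258), stood at 71.4 CPM in WT, with 179 for P1048R, 179 for T1202K and 173 for C1233W. All mutants were nearly level and WT lay 2.42-fold below the nearest (gap -1.27, -1.41 to -1.15, log2 difference -1.31, SE 0.17, edgeR adjusted p = 0.000748), though the gap was -0.98, under 2-fold, after the GC and length correction. CDT1 was the 1 of 27 replication licensing genes that was called, and the list's median was -0.06, with 10 genes below the range. On total counts 20 were below it, and without C1233W 18 were below and 5 were called lower. CCNB1IP1, a regulator of meiotic crossovers (chromosome 14, 20311368 to 20333312), was at 44.5 CPM in WT, against P1048R at 122, T1202K at 123 and C1233W at 107 (edgeR adjusted p = 0.000799), and it was the 1 of 11 meiosis genes that was called.

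DUSP8, a phosphatase of stress-activated MAP kinases (chromosome 11, 1554044 to 1571920), was at 8.56 CPM in WT, with 36.2 for P1048R, 32.6 for T1202K and 22.5 for C1233W (edgeR adjusted p = 0.00256). KRTAP5-1, a keratin-associated protein gene close by (chromosome 11, 1584342 to 1585283), had 0 reads in WT and stood at 3.02, 2.21 and 1.06 CPM in the mutants. With WT set to the floor of 3 reads, KRTAP5-1 was at least 3.31-fold lower than in the nearest mutant. The antisense gene KRTAP5-AS1 overlaps both on the opposite strand, and the sources used here do not state the strand setting of the counting, so their reads cannot be assigned with certainty. CYS1, which encodes the cilium protein cystin (chromosome 2, 10056780 to 10080944), also had 0 reads in WT against 1.01, 1.06 and 1.93 CPM, which is at least 3.13-fold lower than the nearest mutant. Its call was lost after the GC and length correction (edgeR adjusted p = 0.0677) and with protein-coding genes alone (adjusted p = 0.0545).

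PBX4, a TALE homeobox gene (chromosome 19, 19561707 to 19618916), stood at 2.78 CPM in WT, against P1048R at 11.5, T1202K at 12.2 and C1233W at 8.80 (edgeR adjusted p = 0.00774). RBP5, a retinol-binding protein gene (chromosome 12, 7123684 to 7128942), was at 1.18 CPM in WT and 4.77 to 6.45 in the mutants (edgeR adjusted p = 0.0192). OVGP1, an oviduct glycoprotein gene (chromosome 1, 111414314 to 111427777), was at 5.46 CPM in WT and 15.8 to 21.5 in the mutants (edgeR adjusted p = 0.00445). These genes were low in WT, whereas OVGP1 in the mutants came near 21.9 CPM, the median of the mean level over all genes compared. WT did not overlap the mutants, as follows from being apart. FSD1L stood at 12.8 CPM in WT and 32.3 to 51.0 in the mutants, though the pseudogene RALGAPA1P1 overlaps it on the same strand. DENND2A, a gene of the DENN family of Rab activators, was at 6.21 CPM in WT and 17.0 to 19.4 in the mutants, with ADCK2 on its opposite strand.

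COL5A3, a collagen V chain, and TFEB, a master regulator of lysosomal genes, were the list members apart in the matrix and lysosome lists on the lower side. COL5A3 (chromosome 19, 9959561 to 10010471) stood at 0.535 CPM in WT, with 15.4 for P1048R, 6.18 for T1202K and 2.42 for C1233W, so the mutants differed among themselves more than WT did from the nearest. The edgeR adjusted p of COL5A3 was 0.0233, and it was 0.0672 after the GC and length correction and 0.114 in DESeq2's Wald test. The matrix list as a whole lay the other way, with 13 of 35 genes above the range, 4 below and a median of 0.21, and without C1233W 26 were above, with 12 called higher and 2 lower. TFEB (chromosome 6, 41683978 to 41736259) was at 4.92 CPM in WT, against P1048R at 15.8, T1202K at 15.98 and C1233W at 13.3 (edgeR adjusted p = 0.00809), while the 33 autophagy and lysosome genes had a median of -0.01 and no other call. On total counts, with at least 5 CPM, without a filter, with protein-coding genes alone, after the GC and length correction and in DESeq2's Wald test 2 of them were called lower, and without C1233W 6 were called lower and 2 higher. Of the Wnt list, NKD2, an inhibitor of Dishevelled, was called, at 13.7 CPM in WT and 25.7 to 26.5 in the mutants (edgeR adjusted p = 0.0356). The NKD2 call was lost after the GC and length correction (edgeR adjusted p = 0.171), without P1048R (0.0615) and without T1202K (0.0813), and without C1233W 3 of the list were called lower and 1 higher. NOTUM, which inactivates Wnt ligands, was at 1.39 CPM in WT and 3.80 to 5.22 in the mutants, and SP5, a Wnt target, at 0.749 and 2.13 to 2.74. Both were apart without passing the test (edgeR adjusted p = 0.0673 and 0.128), and both passed it without C1233W (adjusted p = 0.00689 and 0.0128). Neither was apart after the GC and length correction.

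Genes of the ATF4 programme, which cells switch on when amino acids run short or protein folding in the endoplasmic reticulum fails, lay mostly below the mutant range in WT. That held for 21 of 31 tested members, and 1 lay above the range, against 31.0% and 33.4% of all genes. The test called 6 lower and 0 higher (1 higher at an unadjusted p under 0.05, 0 in DESeq2's Wald test), and the median log2 difference was -0.52. Left without P1048R, T1202K or C1233W in turn, the test called 10, 11 and 11 of them lower, and 1 higher without C1233W.

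SLC3A2, the shared heavy chain of amino acid exchangers (chromosome 11, 62856102 to 62888875), stood at 102 CPM in WT, with 221 for P1048R, 239 for T1202K and 219 for C1233W (log2 difference -1.15, SE 0.17, edgeR adjusted p = 0.00136). Its cystine-importing partner SLC7A11 (chromosome 4, 138164097 to 138242349) was at 16.5 CPM in WT, against P1048R at 40.7, T1202K at 33.3 and C1233W at 112 (log2 difference -1.91, SE 0.47, edgeR adjusted p = 0.0303). TRIB3, a pseudokinase that feeds back on ATF4 (chromosome 20, 362835 to 397559), was at 10.3 CPM in WT, with 27.1 for P1048R, 26.5 for T1202K and 23.4 for C1233W (edgeR adjusted p = 0.00774). All 3 genes were apart, and the mutants were close together in SLC3A2 and TRIB3, whereas C1233W stood far above the other mutants in SLC7A11. The SLC7A11 gap was -1.01, close to the 2-fold limit, and -0.98, under 2-fold, with protein-coding genes alone. The SLC7A11 call was lost after the GC and length correction (edgeR adjusted p = 0.0588) and in DESeq2's Wald test (adjusted p = 0.345), and SLC7A11-AS1 lies on its opposite strand.

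ATF3, a stress-induced transcription factor, stood at 84.4 CPM in WT, against P1048R at 232, T1202K at 162 and C1233W at 199 (edgeR adjusted p = 0.00265). SESN2, a leucine sensor that restrains mTORC1, was at 34.1 CPM in WT, with 61.8 for P1048R, 62.5 for T1202K and 99.2 for C1233W (edgeR adjusted p = 0.0192). CEBPG, a partner of ATF4 on DNA, was at 74.7 CPM in WT, against P1048R at 139, T1202K at 117 and C1233W at 113 (edgeR adjusted p = 0.0346). These 3 were called with the nearest mutant under 2-fold away. SESN2 was lost after the GC and length correction (edgeR adjusted p = 0.0585) and CEBPG without P1048R (0.0888). For other members C1233W alone was far from WT. ASNS, asparagine synthetase, was at 2.57 CPM in WT, 2.93 in P1048R, 3.36 in T1202K and 15.1 in C1233W, and DDIT4, an mTORC1 inhibitor, was at 8.99, 10.2, 12.4 and 54.7 in the same order. Neither passed the test (edgeR adjusted p = 0.277 and 0.201). ATF4 itself was at 240 CPM in WT, 272 in both P1048R and T1202K, and 428 in C1233W (edgeR adjusted p = 0.288).

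**Figure D2:**
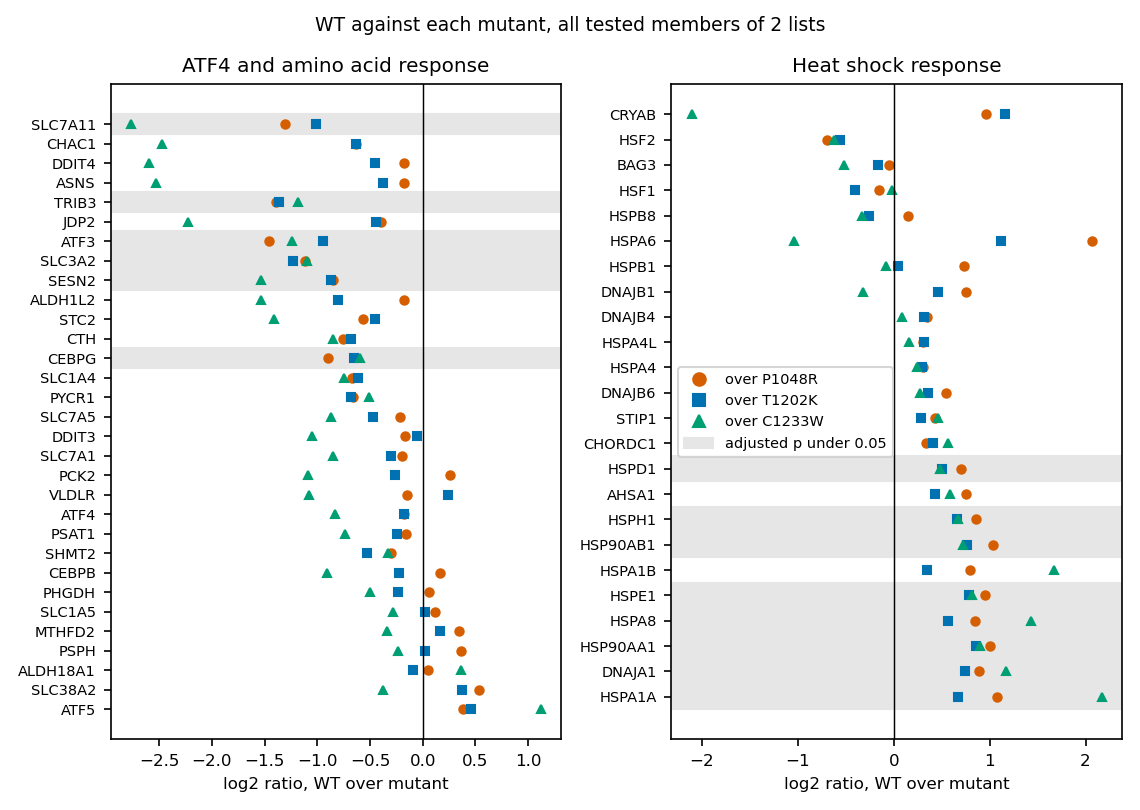
Log2 ratio of WT to each mutant for the tested members of the ATF4 list (left) and the heat shock list (right), 1 row per gene and 1 symbol per mutant; rows shaded grey had an edgeR adjusted p under 0.05. The 6 shaded ATF4 rows lie left of 0 and the 8 shaded heat shock rows right of it, and CRYAB and HSPA6 have symbols on both sides.

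The core of the C/EBP-ATF response element, TGATGCAA or its reverse complement TTGCATCA, was sought on both strands of RefSeq promoters (GRCh38.p14, 250 bases before to 50 after each start). At least 1 promoter held it in 5 of the 26 ATF4 list genes with a promoter entry (19.2%) and in 80 of all 11149 genes with an entry (0.718%). It was in 3 of 130 genes apart and lower (2.31%) and in 1 of 6 apart and higher (16.7%), numbers too small to compare the directions. The ATF4 list was drawn from textbook knowledge of that programme, so its share is not an independent result. Sites before the start are shown for list genes and for genes apart and lower that hold the core, which most members of these groups lack. They do not cover all 5 list genes with the core. The 1 gene apart and higher that holds it is not among them, so these sites do not show that only lower genes carry the core. The core is in capitals, and each line reads along the gene's own strand.
CEBPG (chr19:33374055-33374094, plus strand): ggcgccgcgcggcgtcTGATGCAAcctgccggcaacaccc
CHAC1 (chr15:40953246-40953285, plus strand): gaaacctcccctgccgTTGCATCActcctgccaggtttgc
JDP2 (chr14:75427990-75428021, plus strand): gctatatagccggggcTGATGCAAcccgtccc
SLC1A5 (chr19:46784888-46784927, minus strand): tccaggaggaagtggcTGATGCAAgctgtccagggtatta
EPM2A (chr6:145736095-145736134, minus strand): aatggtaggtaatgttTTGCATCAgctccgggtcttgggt
PLEKHH3 (chr17:42677177-42677216, minus strand): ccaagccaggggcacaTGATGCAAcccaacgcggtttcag
FBLL1 (chr5:168529274-168529304, plus strand): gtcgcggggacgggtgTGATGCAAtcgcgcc

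Of the genes shown, some were called and others were not. EPM2A, the phosphatase laforin of glycogen metabolism, stood at 8.67 CPM in WT and 19.0 to 31.9 in the mutants (edgeR adjusted p = 0.0159), and PLEKHH3 at 15.9 CPM in WT and 36.9 to 45.7 in the mutants (edgeR adjusted p = 0.0044). FBLL1 had few reads, at 0.214 CPM in WT and 1.34 to 2.38 in the mutants (edgeR adjusted p = 0.0652). EPM2A, PLEKHH3 and FBLL1 were named after their values were seen, as the apart, lower genes shown to hold the core. CEBPG, given above, was called, whereas SLC1A5, a glutamine transporter, was at 98.7 CPM in WT, inside the mutant range of 91.3 to 120. CHAC1, which degrades glutathione, was at 3.00 CPM in WT, 4.69 in P1048R, 4.68 in T1202K and 16.9 in C1233W (edgeR adjusted p = 0.177). JDP2, a repressor of the AP-1 family, also stood highest in C1233W, at 3.10 CPM in WT, 4.10 in P1048R, 4.24 in T1202K and 14.7 in C1233W (edgeR adjusted p = 0.249). The cyclic AMP response element TGACGTCA was in 4.62% of the apart, lower genes and 3.79% of all, and the E-box CACGTG in 13.1% and 12.5%.

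Immediate early genes, which respond to growth factors and stress without new protein synthesis, lay below the mutant range more often than above it. WT was below for 15 of 31 (48.4%) and above it for 5 (16.1%), against 31.0% and 33.4% of all genes. The median log2 difference was -0.40, and the test called 5 lower: DUSP8, ATF3, KLF10, KLF6 and JUND. DUSP8 and ATF3 are described above, and ATF3 is a member of both lists. KLF10, a TGF-beta-inducible repressor, was at 32.8 CPM in WT, with 88.5 for P1048R, 62.5 for T1202K and 52.7 for C1233W (edgeR adjusted p = 0.0250). KLF6 was at 50.5 CPM in WT and 76.7 to 95.1 in the mutants, and JUND, an AP-1 subunit, at 43.2 and 63.9 to 75.0. WT did not overlap the mutants in any of these genes, which held for all 455 called genes and for 64.4% of all genes compared. After the GC and length correction the median was -0.21, and on DESeq2 size factors 3 calls were left, without KLF6 and JUND. KLF6 was also lost without P1048R, and JUND without P1048R, without T1202K and after the GC and length correction. Without C1233W, 8 of the list were called lower and 2 higher.

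In the Notch pathway, WT was below the mutant range for 12 of 23 genes (52.2%) and above it for 2 (8.70%), against 31.0% and 33.4% of all genes. The median was -0.31, which became -0.10 after the GC and length correction. The test called 3 lower: HES4 and HEY2, transcriptional repressors induced by Notch, and RFNG, a sugar transferase that modifies the receptor. HES4 stood at 22.7 CPM in WT, against P1048R at 42.1, T1202K at 50.2 and C1233W at 39.4 (edgeR adjusted p = 0.0233). HEY2 was at 22.9 CPM in WT and 32.4 to 52.3 in the mutants, and RFNG at 15.7 and 26.2 to 33.1. Only 1 call of the 3 was left after the GC and length correction, without P1048R or without T1202K.

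Histone genes lay mostly below the mutant range and other architectural chromatin genes mostly above it. Of 23 tested replication-dependent histone genes, WT was below the mutant range for 16 (69.6%) and above it for 3 (13.0%), against 31.0% and 33.4% of all genes. The median was -0.60. HIST1H4H was at 1.93 CPM in WT and 4.16 to 6.20 in the mutants (edgeR adjusted p = 0.111, or 0.00294 without C1233W). HIST2H4A was the 1 called, at 0.642 CPM in WT, with 4.61 for P1048R, 4.50 for T1202K and 1.93 for C1233W (edgeR adjusted p = 0.0435), but it shares its sequence with a near-identical copy. That call was lost without P1048R (adjusted p = 0.0548), without T1202K (0.0690), on DESeq2 size factors (0.0560), with protein-coding genes alone (0.0611) and after the GC and length correction (0.0556), and without C1233W the list had 8 calls. These transcripts mostly lack poly(A) tails, and only 23 of 89 genes reached the minimum level.

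HMGN5, a nucleosome-binding protein that loosens linker-histone-compacted chromatin (chromosome X, 81113701 to 81201942), had the clearest gap of the protein-coding genes that were higher in WT. It stood at 229 CPM in WT, against P1048R at 102, T1202K at 80.2 and C1233W at 104, a gap of 1.14 (1.04 to 1.25) and a log2 difference of 1.27 (SE 0.17, edgeR adjusted p = 0.000707). The gap was 0.95 on total counts and 0.96 after the GC and length correction, both under 2-fold. Among 12 high mobility group and linker histone genes, 8 (66.7%) were above the mutant range, against 33.4% of all genes. HMGN2 (779 CPM in WT, 488 to 555 in the mutants) and HMGB1 (504 and 316 to 334) were called higher as well. The linker histone H1F0 was called lower, at 184 CPM in WT and 262 to 383 in the mutants (edgeR adjusted p = 0.0478), a call that was lost on DESeq2 size factors (0.0539), with protein-coding genes alone (0.0559) and after the GC and length correction (0.0767). On total counts 1 of the 3 higher calls was left, and without C1233W there were 8.

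Mitochondrially encoded mRNAs, which encode subunits of the respiratory chain and ATP synthase, were higher in WT. WT was above the mutant range for all 13, and for 12 of them on total counts or after the GC and length correction. The test called 11 of them higher and 0 lower (0 lower also at an unadjusted p under 0.05 and in DESeq2's Wald test), and the median log2 difference was 0.82. They made up 7.72% of the counted reads in WT, 4.71% in P1048R, 4.70% in T1202K and 5.36% in C1233W. The number called was 11 on total counts and 8 after the GC and length correction, and 11 or 12 without any 1 mutant.

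MT-ATP8, a subunit of ATP synthase, stood at 4142 CPM in WT, with 1632 for P1048R, 1527 for T1202K and 1991 for C1233W (log2 difference 1.27, SE 0.16, edgeR adjusted p = 0.000466). It was the 1 mitochondrial mRNA that was apart, with a gap of 1.06, which was 0.93 on total counts and 0.59 after the GC and length correction. MT-ATP6, which overlaps it on the same strand, was at 13203 CPM in WT, against P1048R at 5556, T1202K at 5561 and C1233W at 6918. MT-ND2, a subunit of complex I, was at 5764 CPM in WT and 2519 to 3037 in the mutants. The mRNAs of 2 cytochrome oxidase subunits did not pass: MT-CO1 was at 7732 CPM in WT and 5909 to 7208 in the mutants (edgeR adjusted p = 0.428), and MT-CO2 at 5987 and 3661 to 4546 (adjusted p = 0.0581). In every one of these genes C1233W was the mutant nearest to WT.

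**Figure D3:**
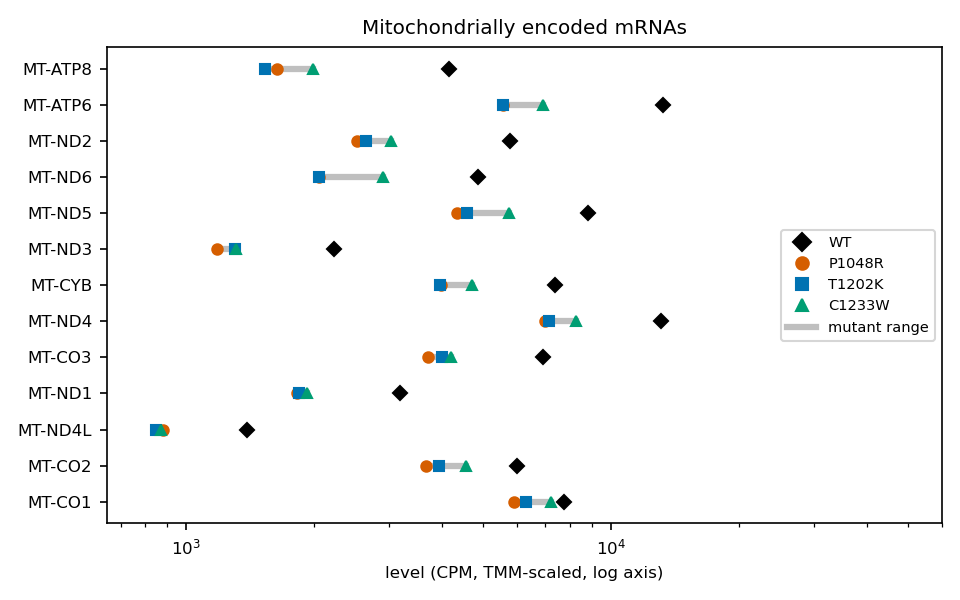
Levels in CPM (log axis) of the 13 mitochondrially encoded mRNAs, ordered by their log2 difference; the diamond is WT, the other symbols are the 3 mutants and the grey bar spans the mutants. WT lies to the right of the bar in all 13 rows, farthest for MT-ATP8 and nearest for MT-CO1, at 7732 CPM against 5909 to 7208.

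The mitochondrial ribosomal RNAs, transcribed from the same genome, did not share the direction. MT-RNR1, the small-subunit RNA, stood at 902 CPM in WT, with 1458 for P1048R, 1374 for T1202K and 1568 for C1233W (log2 difference -0.70, SE 0.16, edgeR adjusted p = 0.0218). MT-RNR2, the large-subunit RNA, was at 6909 CPM in WT, inside the mutant range of 6457 to 6952. Of 16 mitochondrial tRNA genes, 13 were above the mutant range and 4 were called higher. MT-TE was at 175 CPM in WT, against P1048R at 54.9, T1202K at 41.2 and C1233W at 54.5 (log2 difference 1.80, SE 0.17, edgeR adjusted p = 2.0e-05), and MT-TL2 at 45.2 CPM in WT and 14.7 to 18.2 in the mutants. The direction of the tRNA list turned after the GC and length correction, when 7 genes were below the range and 3 above, the median went from 0.63 to -0.13 and 1 call, MT-TE, was left. These tRNAs are cut from the same long transcripts as the mitochondrial mRNAs. MT-TH, the third one apart, was at 20.2 CPM in WT and 9.01 to 9.55 in the mutants, and its call was lost without T1202K (edgeR adjusted p = 0.0554).

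Nuclear genes for oxidative phosphorylation lay mostly above the mutant range, by smaller amounts. WT was above the mutant range for 60 of 75 and below it for 3, with a median of 0.25. The test called 6 higher and 0 lower (0 lower also at an unadjusted p under 0.05 and in DESeq2's Wald test), all of them small subunits: COX7C, UQCRB, NDUFB1, ATP5ME, NDUFS5 and NDUFS6. COX7C, of cytochrome oxidase, was at 475 CPM in WT, with 267 for P1048R, 270 for T1202K and 314 for C1233W (edgeR adjusted p = 0.0126). This pattern rested on the scaling, since on total counts 29 genes were above the range, 8 below it and 1 was called. The GC and length correction left 2 calls, and without C1233W 19 were called higher and 1 lower.

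Cytosolic ribosomal protein genes were alike in this, with 56 of 82 above the mutant range, 5 below it, a median of 0.26 and 6 called higher. RPS27 stood at 947 CPM in WT, against P1048R at 443, T1202K at 455 and C1233W at 603 (edgeR adjusted p = 0.00621). RPL23A was at 894 CPM in WT and 439 to 603 in the mutants (edgeR adjusted p = 0.0126). On total counts 38 were above the range and 3 were called, 2 were called after the GC and length correction, and 31 without C1233W. This family has many pseudogenes, and reads of a gene and of its copies cannot be told apart here.

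Heat shock genes, most of them chaperones, which fold and refold client proteins and are induced by heat shock factor, lay mostly above the mutant range. WT was above it for 16 of 24 heat shock genes and below it for 3, with a median of 0.41, and the test called 8 higher and 0 lower (1 lower at an unadjusted p under 0.05, 1 in DESeq2's Wald test). HSP90AA1 stood at 7419 CPM in WT, with 3709 for P1048R, 4110 for T1202K and 3992 for C1233W (log2 difference 0.91, SE 0.15, edgeR adjusted p = 0.00285). HSPA8, the constitutive HSP70, was at 1342 CPM in WT, against P1048R at 744, T1202K at 906 and C1233W at 498 (edgeR adjusted p = 0.0212), and its co-chaperone DNAJA1 at 524 CPM in WT and 232 to 312 in the mutants (edgeR adjusted p = 0.00448). The called genes also included HSP90AB1, HSPH1 and HSPA1A of the cytosol and the mitochondrial chaperonins HSPE1 and HSPD1. The HSPD1 call was lost on DESeq2 size factors, on total counts, with protein-coding genes alone, with at least 5 CPM, after the GC and length correction and without T1202K. The HSPA8 and HSPA1A calls were lost on total counts (edgeR adjusted p = 0.0618 and 0.0737) and in DESeq2's Wald test (0.311 and 0.459), and that of HSPA1A on DESeq2 size factors (0.0568). HSPA1A, the inducible HSP70, was at 1474 CPM in WT, with 697 for P1048R, 930 for T1202K and 328 for C1233W (edgeR adjusted p = 0.0302), and its near-identical copy HSPA1B at 601, against P1048R at 346, T1202K at 474 and C1233W at 189 (adjusted p = 0.0915).

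Not every heat shock gene followed. HSPA6, the strictly inducible HSP70, was at 13.8 CPM in WT, 3.27 in P1048R, 6.36 in T1202K and 28.5 in C1233W, so WT was inside the mutant range. HSF2, a heat shock transcription factor, was on the other side, at 71.5 CPM in WT and 106 to 116 in the mutants (edgeR adjusted p = 0.0540). On total counts 4 chaperones were called higher and 1 gene of the list lower, and without C1233W 13 were called higher. In the unfolded protein response of the endoplasmic reticulum, 11 of 19 genes were above the range and 3 were called higher. HSPA5, the BiP chaperone, was at 706 CPM in WT, with 349 for P1048R, 430 for T1202K and 362 for C1233W (edgeR adjusted p = 0.00436), HSP90B1 at 1174 and 589 to 637, and CALR at 813 and 470 to 552. On total counts the list's median was 0.03 instead of 0.21, with 7 genes on each side of the range and 2 calls.

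**Figure D4:**
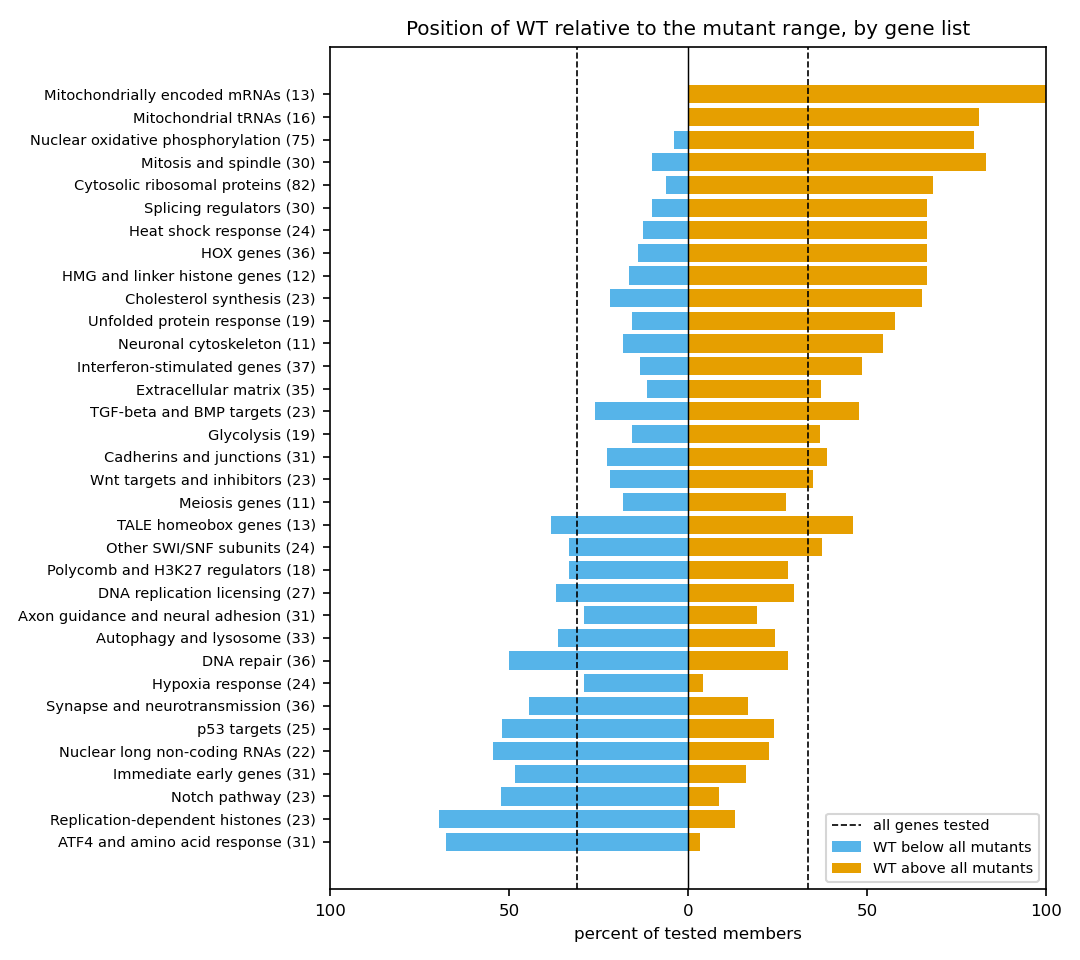
Percent of the tested members of each gene list with WT below all mutants (left, blue) or above all mutants (right, orange), for lists with at least 10 tested members, whose number is in brackets; dashed lines mark 31.0% and 33.4% for all genes. All 13 mitochondrial mRNAs lie on the right, and the ATF4 list reaches 67.7% on the left.

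Mitosis and HOX genes lay mostly above the mutant range without any call. WT was above the mutant range for 25 of 30 mitosis and spindle genes (83.3%), against 33.4% of all genes, with a median of 0.28. The edgeR test and DESeq2's Wald test called 0 of them, and 13 were higher at an unadjusted p under 0.05. Of 36 HOX genes, the homeobox genes of body axis patterning, 24 (66.7%) were above the range. Their median was 0.24, with 0 calls by either tool and 9 higher at an unadjusted p under 0.05. On total counts the numbers above the range were 15 and 15, the medians were 0.10 and 0.07, and without C1233W 6 genes of each list were called higher by edgeR. Splicing regulators had 20 of 30 (66.7%) above the range and 5 called higher: PNISR, RBM25, LUC7L3, SRSF5 and HNRNPA2B1. PNISR, a splicing factor of nuclear speckles, was at 653 CPM in WT, against P1048R at 363, T1202K at 321 and C1233W at 418 (edgeR adjusted p = 0.00805). On total counts and without T1202K 2 splicing regulators were called, PNISR and RBM25.

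Nuclear long non-coding RNAs differed in both directions. MALAT1, the RNA of nuclear speckles, was higher in WT, at 214 CPM, with 71.5 for P1048R, 59.3 for T1202K and 129 for C1233W (log2 difference 1.31, SE 0.25, edgeR adjusted p = 0.00805). EPB41L4A-AS1 was lower, at 11.7 CPM in WT and 28.5 to 39.0 in the mutants (edgeR adjusted p = 0.00265), with EPB41L4A on its opposite strand. The list had 12 of 22 genes (54.5%) below the range and 5 (22.7%) above it, against 31.0% and 33.4% of all genes. In it 4 were called lower and 1 higher, and DESeq2's Wald test did not call MALAT1 or any other of them higher. Of 37 interferon-stimulated genes 2 were called higher, IFIT1 (16.8 CPM in WT, 5.78 to 9.38 in the mutants) and SAMD9 (21.5 and 7.37 to 13.1). Neither was called on total counts. IFIT1 was also lost without T1202K, and SAMD9 on DESeq2 size factors, after the GC and length correction, without P1048R and in DESeq2's Wald test.

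Lists of other stress and signalling pathways held few calls. Of 24 hypoxia genes, WT was below the mutant range for 7 (29.2%) and above it for 1 (4.17%), against 31.0% and 33.4% of all genes. VEGFA, the angiogenic growth factor, was the 1 called, at 41.3 CPM in WT and 67.8 to 89.4 in the mutants (edgeR adjusted p = 0.0190). DESeq2's Wald test called 2 hypoxia genes lower. Without C1233W the list leaned the other way, with 7 genes below the range, 13 above, a median of 0.07 instead of -0.07, 2 called lower and 4 higher. Of 25 targets of p53, WT was below the mutant range for 13 (52.0%) and above it for 6 (24.0%). AEN, a nuclease of apoptosis, was called lower (56.7 CPM in WT, 79.7 to 113 in the mutants) and TP53I3, an oxidoreductase, higher (19.5 and 8.96 to 10.7). The TP53I3 call was lost on DESeq2 size factors (edgeR adjusted p = 0.0607), on total counts (0.101), without P1048R (0.125), without T1202K (0.0993) and in DESeq2's Wald test (0.0783), and without C1233W 5 targets were called lower and 1 higher. The edgeR test called 0 of 23 TGF-beta and BMP targets, 0 of 31 cadherin and junction genes, 0 of 36 DNA repair genes, 0 of 19 glycolysis genes and 0 of 23 cholesterol synthesis genes. The counts at an unadjusted p under 0.05 were 1, 3, 13, 2 and 9 in that order, and DESeq2's Wald test called 1 cadherin or junction gene and 0 of the others. Of the 23 cholesterol synthesis genes, 15 (65.2%) were above the mutant range and 5 (21.7%) below it. Their 9 genes at an unadjusted p under 0.05 were 8 higher and 1 lower. Without C1233W edgeR called 1 lower and 1 higher among the TGF-beta and BMP targets, 1 and 4 among cadherin and junction genes, 8 and 2 among DNA repair genes, 0 and 3 among glycolysis genes and 1 and 7 among cholesterol genes. In that fit calls were far more common among all genes as well.

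Most genes with WT apart and higher were not protein-coding: of the 54, 9 encoded proteins, 24 were pseudogenes and 3 were mitochondrial tRNAs. Among the 24 pseudogenes, 15 carried the name of a tested parent gene, and these had 12 different parents. WT was above the mutant range for all 12 parents, and 10 of them were called higher. HSP90AB2P stood at 16.05 CPM in WT, with 2.85 for P1048R, 2.56 for T1202K and 4.74 for C1233W, while its parent HSP90AB1 was at 4573 CPM in WT and 2234 to 2764 in the mutants. PTMAP4 was at 16.6 CPM in WT and 4.55 to 5.53 in the mutants, and PTMA, the parent that encodes prothymosin alpha, at 1686 and 793 to 897. The sources used here do not say how reads that align in several places were counted, so reads of a pseudogene and of its parent cannot be told apart. HNRNPA3P3 (2.25 CPM in WT, 0 to 0.265 in the mutants) and XRCC6P2 (67.6 and 28.1 to 28.9) were other named pseudogenes with a tested parent. AC245060.5 was at 27.5 CPM in WT and 6.18 to 11.8 in the mutants, and AC022182.3 at 2.89 and 0.177 to 0.586.

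The protein-coding genes that were apart and higher, besides HMGN5 and MT-ATP8, were all low in every library, and none passed the test. NTS, which encodes the peptide neurotensin, stood at 4.49 CPM in WT, against P1048R at 1.51, T1202K at 1.32 and C1233W at 2.13 (gap 1.06, 0.30 to 1.89, edgeR adjusted p = 0.0804). GLIPR1 was at 3.64 CPM in WT and 1.17 to 1.64 in the mutants, and ARHGAP8 at 4.49 and 1.59 to 2.13. CKMT2, the mitochondrial creatine kinase of muscle, was at 3.00 CPM in WT and 0.838 to 1.35 in the mutants, and COL6A3, a collagen VI chain, at 2.03 and 0.265 to 0.838. ABCA8, a lipid transporter, was at 1.28 CPM in WT and 0.168 to 0.353 in the mutants, and SPDYE1, of a gene family with many close copies, at 1.93 and 0.677 to 0.754. These levels rest on few reads, as the width of the interval for NTS shows. Without C1233W the test called NTS (edgeR adjusted p = 0.0019), ARHGAP8 (0.0117), GLIPR1 (0.0158), CKMT2 (0.0175) and COL6A3 (0.0310), whereas on total counts NTS, ARHGAP8, GLIPR1, CKMT2, ABCA8, COL6A3 and SPDYE1 were no longer apart. Antisense or neighbouring genes overlap CKMT2 (CKMT2-AS1), GLIPR1 (KRR1) and SPDYE1 (POLR2J4), so their reads are uncertain.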

How the data were processed

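RNA from 4 libraries of PBRM1-disrupted HEK293T cells was sequenced with a stranded kit. The values used were whole-number read counts per gene deposited by the authors, 1 column per library, without normalization. Per the submitters' processing notes, Trim Galore, HISAT2 and featureCounts were used with build hg38. Versions, annotation, strand setting and counting of multiply aligned reads were not given in these sources. All 58735 identifiers were found in GENCODE 29, which gave coordinates, GC content and lengths.

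Counts were scaled by TMM and tested with edgeR 4.0.16 (R 4.3.3, glmQLFit and glmQLFTest), with 2 residual degrees of freedom (fewer when a mutant was left out) and Benjamini-Hochberg adjustment. Ratios between libraries had 0.5 added to each count. SE is the log2 difference divided by the root of F. List medians are of the mean log2 ratio of WT to the 3 mutants. Intervals cover counting error only, since PCR copies are not independent molecules. The fit was also run on simulated counts that gave all genes 1 common spread and let WT vary like the mutants. That run therefore cannot show whether the real WT library varies like them.

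The rule named PBRM1 and other PBAF subunits; among apart genes, the 15 protein-coding genes lower and up to 12 protein-coding and 8 other genes higher with the largest bound; then apart members of 41 lists. Examples from lists were called genes and also some members that were not called, given with their adjusted p or as inside the mutant range. Members and lists were chosen with earlier results of these data known, and 3 lists were added after seeing the data. Alternatives were other scalings, filters, folds, a GC and length correction, DESeq2 1.42.0 and leaving out each mutant.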

Additional observations from a re-analysis of the deposited data

How the results depend on the processing

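The counts depend on scaling, on the filter and on C1233W, and no named difference that had been called changed sign under the alternatives run. Genes with WT apart and lower numbered 204, against 330 on total counts, 121 with at least 5 CPM, 558 at 1.5-fold and 235 to 401 without 1 mutant. Genes apart and higher numbered 54, against 22 on total counts, 9 among protein-coding genes alone, 15 with at least 5 CPM, 30 after the GC and length correction, 249 at 1.5-fold and 82 to 153 without 1 mutant. Genes called lower by edgeR numbered 254, against 451 on total counts, 416 without a filter and 183 to 1637 without 1 mutant. Genes called higher numbered 201, against 60 on total counts, 309 without a filter, 122 after the GC and length correction and 165 to 974 without 1 mutant. The highest values of all these ranges came without C1233W. All 455 called genes were called again without it, and 322 and 332 without P1048R and T1202K. DESeq2's Wald test called 325 lower and 227 higher, with 422 of the 455 among them, and gave no adjusted p for 3784 genes. Fewer mutants make the range narrower, and the cause of the other shifts was not tested. No paired analysis was possible because WT and the mutant group share only 1 replicate number, and the numbers name constructs. With 1 WT library, the spread of WT is unmeasured at any depth.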

Other observations

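Zinc finger genes with numbered names, most of which encode DNA-binding repressors with a KRAB domain, leaned to the lower side in WT. This list was chosen after its values were seen. WT was below the mutant range for 251 of 413 and above it for 51, against 31.0% and 33.4% of all genes, with a median log2 difference of -0.28. The edgeR test called 28 lower and 0 higher (8 higher at an unadjusted p under 0.05, 0 in DESeq2's Wald test). ZNF416 stood at 6.95 CPM in WT, against P1048R at 25.9, T1202K at 23.8 and C1233W at 17.7 (edgeR adjusted p = 0.00436), and ZNF250 at 14.98, with 38.8 for P1048R, 36.2 for T1202K and 37.1 for C1233W (adjusted p = 0.0040). After the GC and length correction 24 were called lower and 2 higher, and without C1233W 125 lower and 3 higher.

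Cytosolic aminoacyl-tRNA synthetases, which charge tRNAs with amino acids, split into 8 below the mutant range and 8 above it of 20, and edgeR called 4, all lower. CARS, for cysteine, stood at 49.9 CPM in WT, against P1048R at 114, T1202K at 105 and C1233W at 112 (edgeR adjusted p = 0.00256). AARS, for alanine, was at 126 CPM in WT and 225 to 305 in the mutants, GARS, for glycine, at 190 and 285 to 317, and YARS, for tyrosine, at 165 and 237 to 279. On total counts 13 of the 20 were below the range and 1 above it, and without C1233W 7 were called lower. YARS was lost after the GC and length correction (edgeR adjusted p = 0.0700) and without P1048R (0.0507). Of 19 host genes of small nucleolar RNAs, 4 were called lower and 1 higher. Among the lower calls, SNHG12, SNHG15 and SNHG7 were also counted in the nuclear long non-coding RNA list, so they are not separate results. SNHG17 was at 26.6 CPM in WT and 50.3 to 65.2 in the mutants (edgeR adjusted p = 0.00774), and SNHG4 was the other way, at 49.1 and 24.5 to 30.9 (adjusted p = 0.0248). The SNHG4 call was lost on total counts (edgeR adjusted p = 0.0893) and without P1048R (0.0535), and the lower calls of this list came to 2 after the GC and length correction or without P1048R. Both lists were also chosen after their values were seen.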
